A study of Drosophila melanogaster with 40 samples.

Results

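In wild-type *Drosophila* embryos, 150 transcripts associated with polysomes carried more of their signal in the lighter than in the heavier of the 2 polysome pools of a sucrose gradient. They were chosen from 6524 transcripts measured on arrays. Transcripts were kept where the mean log2 level over all 40 arrays was at or above the 25th percentile, which left 4893. Of these, 2202 had a mean wild-type translation index (TI) between the 40th and the 85th percentile, and the 150 with the lowest mean log2 ratio of pool 4 to pool 3 over the 3 wild-type gradients are the members described here. The TI of a transcript is the mean of its log2 levels in pools 3 and 4 minus its log2 level in pool 1. The wild-type TI and the wild-type ratio therefore chose the members, and their wild-type values are given as a description with no test.

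Embryos were collected 0 to 2 h after egg laying from mothers homozygous for *smaug*1 (*smaug*-mutant embryos) or from wild-type mothers, and each lysate, prepared with cycloheximide in the buffer, was run on a gradient cut into 4 pools from top (pool 1) to bottom (pool 4, with the pellet). There were 3 *smaug*-mutant and 3 wild-type gradients, which the labels call biological replicates. In a further experiment, lysates of *smaug*-mutant embryos made in another buffer were each split and treated with puromycin or with cycloheximide, giving 2 puromycin and 2 cycloheximide gradients. All 4 of these gradients carry the mutation, so puromycin was not applied to wild-type lysate, and they differ from the untreated gradients in buffer and handling as well as in the drug. The RNA of each pool was hybridised in 1 colour, Cy3 or Cy5. In these whole-embryo extracts, fewer cells that hold a transcript and less of it per cell cannot be told apart.

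A translating mRNA carries several ribosomes at once and sediments faster the more ribosomes it bears, so that heavy gradient pools collect mRNAs with many ribosomes and the top of the gradient collects mRNAs with none. Cycloheximide holds elongating ribosomes on the mRNA, whereas puromycin is built into the growing peptide and releases it together with the ribosome. The protein Smaug binds RNA in the early embryo, where it represses the translation of maternal mRNAs and triggers their decay.

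The table used here gives each transcript by its FlyBase transcript identifier. A gene symbol was found for 8 of the 6524 transcripts and for 0 of the 150 members, so no function can be given to any member, and the lists of ribosomal protein, histone, respiratory chain, chaperonin, glycolysis, proteasome and marker genes could not be read. The labelled tissue could not be checked against marker genes for the same reason. No 2 transcripts had the same values. Array medians ran between 9.98 and 14.10 on the log2 scale, and 1 value of the table was at or below 0. The median ratio of pool 4 to pool 3 over all transcripts set 2 gradients apart. In *smaug*-mutant replicate 2 it was -1.30, beside -0.39 and -0.43 in the other 2 *smaug*-mutant gradients, and in wild-type replicate 2 it was 0.84, beside 0.07 and -0.02 in the other 2 wild-type gradients.

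The mean wild-type log2 ratio of pool 4 to pool 3, a difference of 2 log2 levels of the same transcript, had a median of -0.91 over the members and ran between -3.49 and -0.69, beside a median of 0.41 over the 2202 transcripts from which they were drawn. Of the 150 members, 141 had a ratio below 0 in all 3 wild-type gradients (18.6% of all transcripts), and 147 lay below the median transcript in all 3 (30.6% of all 6524 transcripts did so). The member with the lowest mean ratio was FBtr0070821, whose rank rested on a single array. Its wild-type ratios were 0.71, -11.70 and 0.52 in replicates 1, 2 and 3, where the value of replicate 2 came from a pool 4 level of 1.00 beside a pool 3 level of 12.70. FBtr0076229 ranked next and was low in each wild-type gradient. It had ratios of -0.86, -1.70 and -1.31 in *smaug*-mutant gradients, against -1.04, -2.46 and -1.70 in wild-type gradients, and of -0.25 and -0.21 with puromycin, against -0.78 and -0.91 with cycloheximide. All 10 ratios of FBtr0076229 were below 0, and the 2 puromycin values were the nearest to 0.

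The choice had no natural edge. The last member taken, FBtr0086515, had a mean ratio of -0.6917 from single values of -0.88, 0.19 and -1.39, and the first transcript left out, FBtr0082848, had a mean of -0.6913 from values of 0.06, -1.86 and -0.27. The SD of the ratio over the 3 wild-type gradients had a median of 0.41 over the members and exceeded 1 in 6 of them. One of these, FBtr0082856, was singled out after its values were seen. Its wild-type ratios were -3.30, 0.28 and -0.42, so that replicate 1 alone made it a member. When the rule was applied with 1 wild-type gradient left out, the 150 transcripts so chosen shared 91, 81 and 110 with the members for replicates 1, 2 and 3 left out. In the gradient left out, 147, 138 and 145 of them lay below the median transcript, at a median of -0.80, -1.15 and -0.96 relative to it.

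**Figure D1:**
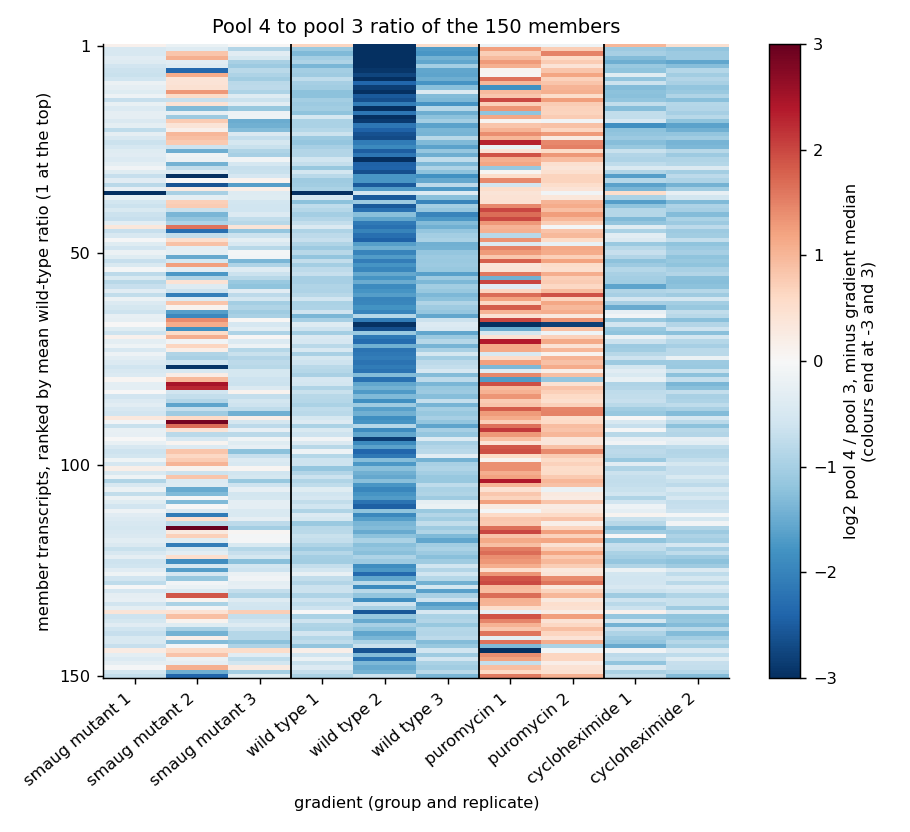
Log2 ratio of pool 4 to pool 3 of each of the 150 members (1 line each, lowest mean wild-type ratio at the top) in the 10 gradients, minus the median ratio of all 6524 transcripts in that gradient. Blue is below and red above the gradient median, and colours end at -3 and 3. The wild-type and cycloheximide columns are blue for nearly every member, the puromycin columns are mostly red, and *smaug*-mutant replicate 2 is mixed.

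In *smaug*-mutant replicates 1 and 3 the members had a lower ratio of pool 4 to pool 3 than other transcripts. In replicate 2 they did not stand apart from the 2202 transcripts they were drawn from. Relative to the array median, the members' pool 4 level in replicates 1 and 3 was -0.19 and -0.29, against 0.41 and 0.575 over the 2202. Their pool 3 level was 0.16 and 0.35, against 0.50 and 0.565, so it was not raised above that of the 2202. Their median ratio was -0.79, -1.59 and -1.02 in the 3 *smaug*-mutant gradients, against -0.76, -1.01 and -1.11 in the 3 wild-type gradients. Over all 6524 transcripts the medians were -0.39, -1.30 and -0.43 in *smaug*-mutant gradients, against 0.07, 0.84 and -0.02 in wild-type gradients. Relative to the gradient median the members were therefore at -0.40, -0.29 and -0.59 in *smaug*-mutant gradients and at -0.83, -1.85 and -1.09 in wild-type gradients. The 2202 transcripts of the window were at -0.09, -0.35 and 0.04 in *smaug*-mutant gradients on the same scale, so that in replicate 2 they lay below the members. On this scale the members' 3 *smaug*-mutant and 3 wild-type values did not overlap. The wild-type values chose the members, however, so the difference carries no test. A member stood at a median percentile of 12.9, 41.4 and 13.6 among all transcripts of the *smaug*-mutant gradients, and of 6.1, 9.3 and 4.6 in the wild-type gradients.

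The *smaug*-mutant gradients played no part in the choice other than through the mean level, so the ratio relative to the gradient median was tested there against 0 with limma over all 6524 transcripts. None of the 150 members passed at an adjusted p of 0.05, and 0.0% of all transcripts did so in the lower direction (limma, 0 of 6524 lower and 6, or 0.092%, higher). At an unadjusted p under 0.05, 52 members and 617 of all transcripts were lower. Of the members, 87 were below the gradient median in all 3 *smaug*-mutant gradients (24.6% of all transcripts, 31.3% of the 2202), and 6 were above it in all 3 (24.7% of all). Replicate 2 carried most of the disagreement. There 89 members were below the gradient median, whereas 141 and 137 were so in replicates 1 and 3.

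In both cycloheximide gradients the members again lay below the typical transcript. Their median ratio was -0.52 and -0.62, beside 0.32 and 0.28 over all transcripts. Relative to the gradient median it was -0.84 and -0.91. All but 5 members, 145 of 150, were below the gradient median in both cycloheximide gradients (41.9% of all transcripts, 39.1% of the 2202), and 1 member, FBtr0070821, was above it in both (41.9% of all). No member passed the limma test in the lower direction (0.0% of all transcripts, 0 of 6524) or in the higher direction (0.245%, 16 of 6524), while 92 members and 562 of all transcripts were lower at an unadjusted p under 0.05. That count depended on 1 gradient which belongs to another group but enters the shared estimate of the spread. Without *smaug*-mutant replicate 2, limma called 72 members and 5.35% of all transcripts lower in the cycloheximide gradients.

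Across the *smaug*-mutant and cycloheximide gradients together, 85 members were below the gradient median in all 5 (16.8% of all transcripts, 21.7% of the 2202), and 121 had a ratio below 0 in all 5 (20.2% of all). No transcript differed between cycloheximide and *smaug*-mutant gradients in its centred ratio in limma at an adjusted p of 0.05 (0 of 6524), and 444 transcripts, of which 17 were members, did so at an unadjusted p under 0.05.

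**Figure D2:**
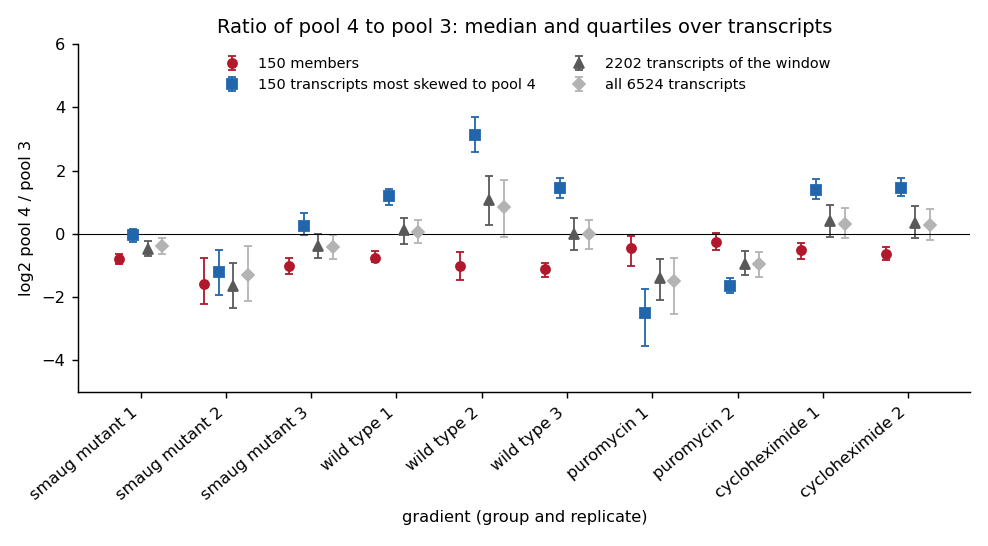
Log2 ratio of pool 4 to pool 3 in each of the 10 gradients, as the median with quartiles over the 150 members (circles), the 150 transcripts of the same TI window most skewed to pool 4 in wild type (squares), the 2202 transcripts of the window (triangles) and all 6524 transcripts (diamonds). The median of the members lies below that of all transcripts in the *smaug*-mutant, wild-type and cycloheximide gradients and above it in both puromycin gradients, at -0.46 and -0.25 beside -1.48 and -0.95.

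In both puromycin gradients the members lay on the other side of the typical transcript. Over all transcripts the puromycin ratio correlated with the cycloheximide ratio at between -0.52 and -0.35 across pairs of gradients. With the wild-type ratio, which chose the members, it correlated at between -0.46 and -0.28. The reversal was therefore not confined to the members, and whether they exceeded this relation was not tested. The median ratio over all transcripts was -1.48 and -0.95 with puromycin, against 0.32 and 0.28 with cycloheximide, while that of the members was -0.46 and -0.25 with puromycin, against -0.52 and -0.62 with cycloheximide. The ratio of the typical transcript was thus lower with puromycin, whereas the members went both ways. Over all transcripts the level fell in both pools, with a median change of -0.80 in pool 3 and -2.52 in pool 4. The ratio was higher in both puromycin than in both cycloheximide gradients in 67 members (5.4% of all transcripts) and lower in 31 (81.6%). Relative to the gradient median they were at 1.02 and 0.70 with puromycin, against -0.84 and -0.91 with cycloheximide, and at a median percentile of 84.9 and 89.9 with puromycin, against 9.3 and 8.0 with cycloheximide. Of the members, 123 were above the gradient median in both puromycin gradients (38.4% of all transcripts, 41.1% of the 2202), and 121 were both above it in both puromycin gradients and below it in both cycloheximide gradients (25.4% of all, 28.4% of the 2202). The 7 members below the median in both puromycin gradients (38.4% of all) were FBtr0070126, FBtr0070821, FBtr0071639, FBtr0072374, FBtr0082160, FBtr0083965 and FBtr0089503, which are named because they are the exceptions and were chosen after their values were seen.

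Tested against the median of the puromycin gradients, 11 members were higher and 1 was lower in limma, beside 0.981% of all transcripts higher and 2.31% lower. Without centring 15 members were lower and 0 higher, beside 48.4% and 0.245% of all transcripts, and with the dye as a covariate or a filter on level 0 members passed. The member that was lower was FBtr0071639. Its ratio was -4.50 and -3.79 with puromycin, against -0.26 and -0.61 with cycloheximide, and its centred ratio with puromycin was -2.93 (SE 0.39, limma adjusted p = 0.0206). FBtr0112350 lay at the other end. It had ratios of 0.21 and 0.95 with puromycin, against -0.67 and -0.77 with cycloheximide, and its centred puromycin ratio was 1.80 (SE 0.36, limma adjusted p = 0.0450), a call that was lost in 9 of 13 alternatives, with limma adjusted p between 0.00761 and 0.513 over them. FBtr0087262 had ratios of 0.50 and 0.66 with puromycin, against -0.25 and -0.52 with cycloheximide, and a centred puromycin ratio of 1.79 (SE 0.29, limma adjusted p = 0.0279). In each of these 3 transcripts the puromycin and cycloheximide values did not overlap. The call of FBtr0071639 was lost in 6 and that of FBtr0087262 in 8 of the 13 alternatives. The count of calls was fragile. It was 0 without *smaug*-mutant replicate 1, beside 0.138% of all transcripts lower and 0.0307% higher. Without *smaug*-mutant replicate 3 it was 1, lower, beside 0.751% lower and 0.169% higher. Without *smaug*-mutant replicate 2, 3 members were lower and 86 higher, beside 14.7% and 13.3% of all transcripts. The count also moved when a puromycin or cycloheximide replicate was left out. Without puromycin replicate 1 or 2 the members' median centred ratio was 0.70 or 1.02.

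The change of the ratio, puromycin minus cycloheximide, had a median of 0.17 (quartiles -0.31 and 0.68) over the members and of -1.58 over all transcripts. In limma 4 members fell and 16 rose, beside 52.0% and 0.736% of all transcripts. Same-numbered puromycin and cycloheximide gradients came from 1 lysate, and with the replicate number as a block 3 members fell and 1 rose, beside 39.9% and 0.138% of all transcripts. After each gradient was centred on its median, 101 members rose and 1 fell, beside 12.0% and 14.0% of all transcripts. FBtr0071639 had the largest fall among the members, -3.71 (SE 0.37, limma adjusted p = 0.0105). FBtr0083965 had ratios of -3.14 and -2.11 with puromycin, against 0.10 and -0.43 with cycloheximide, a change of -2.46 (SE 0.48, limma adjusted p = 0.0215). Among the rises, FBtr0077745 had ratios of 0.83 and 0.50 with puromycin, against -0.96 and -1.12 with cycloheximide, a change of 1.70 (SE 0.27, limma adjusted p = 0.0160). FBtr0082474 had ratios of 0.52 and 0.41 with puromycin, against -0.83 and -0.96 with cycloheximide, a change of 1.36 (SE 0.25, limma adjusted p = 0.0198), which did not pass with the replicate number as a block (limma adjusted p = 0.0534). That none of these 4 transcripts overlapped between the treatments was a condition for naming them. Without either cycloheximide gradient 0 members and 0.0% of all transcripts passed, whereas without puromycin replicate 1 limma called 9 members lower and 39 higher (68.3% and 2.51% of all transcripts), and without puromycin replicate 2 it called 36 lower and 37 higher (77.4% and 2.79%).

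The TI, which sets both polysome pools against the top of the gradient, fell with puromycin in nearly every member. Its median over the members was -3.39 and -3.54 with puromycin, against 0.53 and 0.17 with cycloheximide. In limma 149 of the 150 fell, beside 80.3% of all transcripts, with a median change of -3.78 over the members and -3.0 over all transcripts. FBtr0112350 had the largest fall. Its TI was -4.93 and -4.66 with puromycin, against 2.65 and 2.82 with cycloheximide, a change of -7.53 (SE 0.65, limma adjusted p = 0.00125). FBtr0087433 followed with a TI of -4.25 and -4.29 with puromycin, against 2.04 and 2.49 with cycloheximide, a change of -6.53 (SE 0.65, limma adjusted p = 0.00125). Relative to the median transcript the fall was much smaller, with a median of -0.76 over the members, and centring the gradients left 9 members lower, beside 7.48% of all transcripts. Without puromycin replicate 2, 88 members fell, beside 38.2% of all transcripts.

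**Figure D3:**
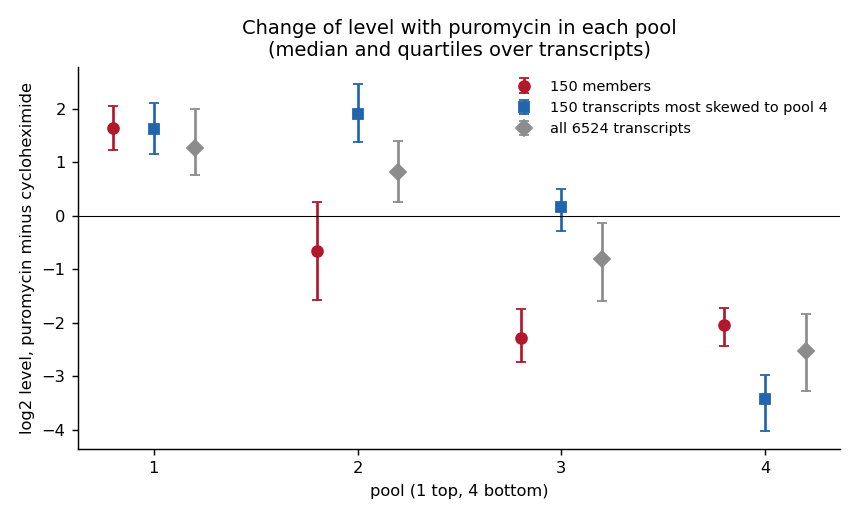
Change of log2 level with puromycin (puromycin minus cycloheximide) in each of the 4 pools, as the median with quartiles over the 150 members (circles), the 150 transcripts of the same TI window most skewed to pool 4 in wild type (squares) and all 6524 transcripts (diamonds). The medians of members and all transcripts lie closer in pools 1 and 4 than in pools 2 and 3, where the medians are -0.65 and -2.28 for the members and 0.83 and -0.80 for all transcripts.

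The 4 pools showed where the members gained and lost signal. In pool 1 all 150 had a higher mean level with puromycin, as did 6368 of the 6524 transcripts, by a median of 1.65 over the members and 1.27 over all, and limma called 110 higher, beside 37.2% of all transcripts. With arrays centred on their medians the members' median change in pool 1 was 0.28 and limma called 20 higher, beside 10.4% of all transcripts. FBtr0112350 had pool 1 levels of 15.94 and 16.02 with puromycin, against 11.42 and 11.08 with cycloheximide, a rise of 4.73 (SE 0.37, limma adjusted p = 6.11e-05). FBtr0087433 had pool 1 levels of 14.45 and 14.71 with puromycin, against 11.26 and 10.66 with cycloheximide, a rise of 3.62 (SE 0.43, limma adjusted p = 0.000328). Both had puromycin levels above either cycloheximide level, which was a condition for naming them. The pool 1 count varied with the replicate left out. The members' median change was 1.38 without cycloheximide replicate 1, 1.36 without puromycin replicate 2 and 1.87 without cycloheximide replicate 2. Over all transcripts it was 0.71, 0.99 and 1.75 in the same order. The count was 0 when pool 1 was fitted alone (0.0% of all transcripts), but 129 with the replicate number as a block in that fit.

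In pool 2, directly below the top, the members went the other way to the typical transcript. Their median change was -0.65, beside 0.83 over all transcripts and 1.02 over the 2202. In limma 47 members fell and 4 rose, beside 4.66% and 15.3% of all transcripts. With arrays centred, 98 fell and 2 rose, beside 15.3% and 13.8% of all transcripts. FBtr0080889 had pool 2 levels of 10.87 and 11.12 with puromycin, against 14.02 and 14.16 with cycloheximide, a change of -3.09 (SE 0.51, limma adjusted p = 0.00265). FBtr0072678 had pool 2 levels of 10.32 and 10.49 with puromycin, against 13.10 and 13.92 with cycloheximide, a change of -3.11 (SE 0.85, limma adjusted p = 0.0254). The members were not uniform. A positive change was found in 48 of the 150, beside 5277 of the 6524 transcripts. Both puromycin levels were above both cycloheximide levels in 25 members (59.9% of all transcripts) and below both in 78 (11.6%). FBtr0076412 had pool 2 levels of 13.48 and 14.69 with puromycin, against 11.80 and 11.69 with cycloheximide, a rise of 2.34 (SE 0.43, limma adjusted p = 0.00425). FBtr0070821, the member that rested on 1 wild-type array, had pool 2 levels of 12.78 and 14.43 with puromycin, against 11.50 and 11.52 with cycloheximide, a rise of 2.10 (SE 0.56, limma adjusted p = 0.0219).

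In pool 3 the members' level was lower throughout. All 150 had a lower mean level there with puromycin, 149 of them with no overlap between the treatments (68.6% of all transcripts), and the median change was -2.28, beside -0.80 over all transcripts. With arrays centred it was -1.40 over the members in pool 3 and -1.48 in pool 2. In limma 129 fell, beside 26.2% of all transcripts, and 105 fell with arrays centred, beside 17.1%. FBtr0081977 had pool 3 levels of 9.60 and 10.03 with puromycin, against 13.60 and 13.38 with cycloheximide, a change of -3.67 (SE 0.58, limma adjusted p = 0.00108). FBtr0079994 had pool 3 levels of 9.38 and 9.68 with puromycin, against 13.36 and 13.00 with cycloheximide, a change of -3.65 (SE 0.75, limma adjusted p = 0.00383). Both fell by well over the gap between their replicates, and only members with no overlap between the treatments could be named. Without either cycloheximide replicate none of the 150 members passed in pool 2 or pool 3 at an adjusted p of 0.05 in limma, while the members' median changes stayed between -0.76 and -0.53 in pool 2 and between -2.30 and -2.23 in pool 3.

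In pool 4 the fall was shared by nearly all transcripts. The median change was -2.04 over the members and -2.52 over all transcripts, and limma called 147 members lower, beside 92.8% of all transcripts. With arrays centred on their medians the median change over the members was 0.30, and limma called 18 members higher and 6 lower, beside 11.1% and 19.0% of all transcripts. FBtr0071639 had pool 4 levels of 5.57 and 6.95 with puromycin, against 11.86 and 11.03 with cycloheximide, a change of -5.19 (SE 0.52, limma adjusted p = 6.38e-05). FBtr0083965 had pool 4 levels of 6.43 and 7.63 with puromycin, against 11.82 and 11.71 with cycloheximide, a change of -4.73 (SE 0.47, limma adjusted p = 6.38e-05). These are the 2 members whose ratio fell most. The 2 puromycin values of each were below both cycloheximide values, which was a condition for naming them.

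**Figure D4:**
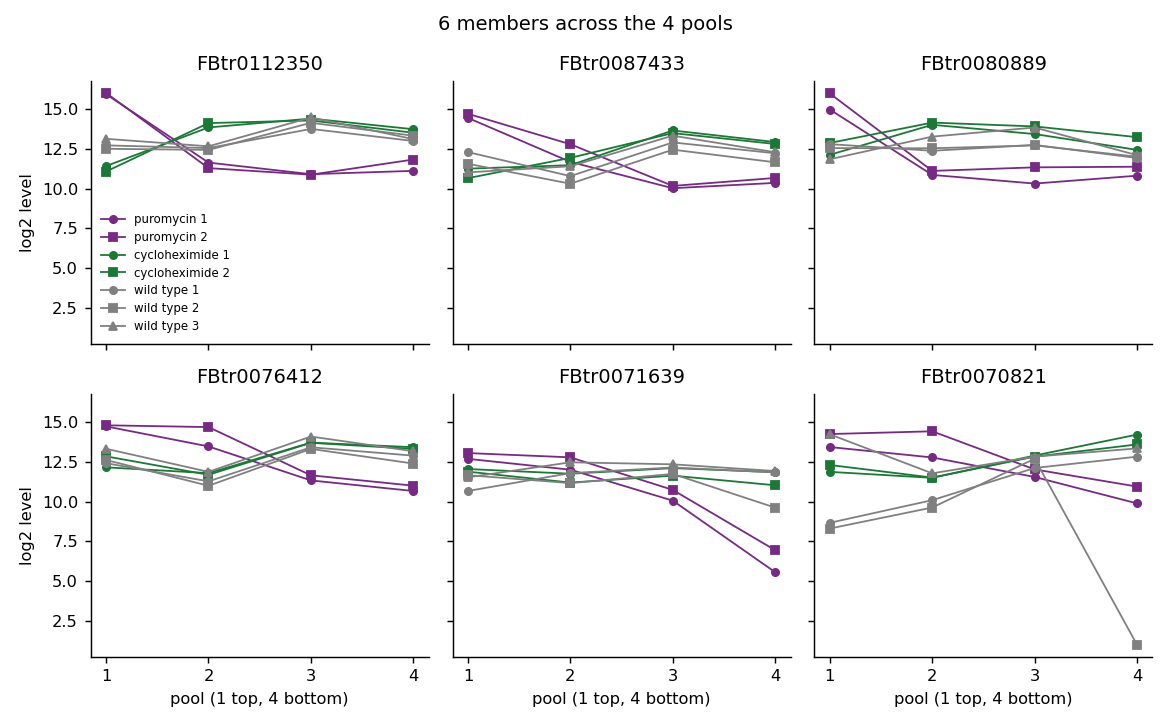
Log2 level of 6 single members in the 4 pools, from the top (pool 1) to the bottom (pool 4), in each puromycin, cycloheximide and wild-type gradient. FBtr0112350, FBtr0087433 and FBtr0080889 are highest in pool 1 in both puromycin gradients, FBtr0076412 and FBtr0070821 are also high in pool 2 there, FBtr0071639 drops to 5.57 and 6.95 in pool 4 with puromycin, and the pool 4 level of 1.00 of FBtr0070821 in wild-type replicate 2 is the lowest point.

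The profile over the 4 pools, as the median share of a member's summed linear level, showed the same movement. With puromycin pool 1 held 72% and 70.3%, against 18.7% and 22.4% with cycloheximide. Pool 2 held 14.3% and 17.3% with puromycin, against 23.4% and 24.6% with cycloheximide. Pool 3 held 8.06% and 6.59% with puromycin, against 33.5% and 30.4% with cycloheximide. Pool 4 held 5.88% and 5.35% with puromycin, against 23.6% and 19.6% with cycloheximide. Over all transcripts the median share of pool 1 was 59.5% and 56.0% with puromycin, against 20.4% and 35.0% with cycloheximide. Pool 1 was the highest of the 4 pools in both puromycin gradients in 147 members (84.2% of all transcripts, 87.5% of the 2202), so that this was common outside the members too. It was so in 80 of the 150 transcripts of the same TI window most skewed to pool 4 in wild type.

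Pool 3 was the highest pool in both cycloheximide gradients in 72 members (8.68% of all transcripts) and in all 3 wild-type gradients in 47 (3.37%). In all 3 *smaug*-mutant gradients it was so in 23 members, which at 15.3% of the members was fewer than the 22.0% of all transcripts. The *smaug*-mutant gradients disagreed on this point, with 32, 79 and 137 members highest in pool 3 in replicates 1, 2 and 3, which was 21.3%, 52.7% and 91.3% of the members, beside 33.0%, 50.2% and 63.1% of all transcripts. The members' pool 3 share averaged 34.2% ± 7.29 in *smaug*-mutant and 34.4% ± 2.23 in wild-type gradients (SD, n = 3 each). Over all transcripts it was 33.2% ± 6.15 and 20.9% ± 5.19 in the same order. Over the transcripts of the TI window it was 37.2% ± 7.47 and 23.8% ± 6.32. In *smaug*-mutant gradients the members' pool 3 share was therefore not set apart from either set. The wild-type pool 3 levels helped to choose the members, so their wild-type share carries no test. The members' pool 4 share was 15.8% ± 4.73 in *smaug*-mutant and 17.9% ± 1.57 in wild-type gradients. Over all transcripts it was 20.8% ± 8.75 and 25.6% ± 3.36.

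**Figure D5:**
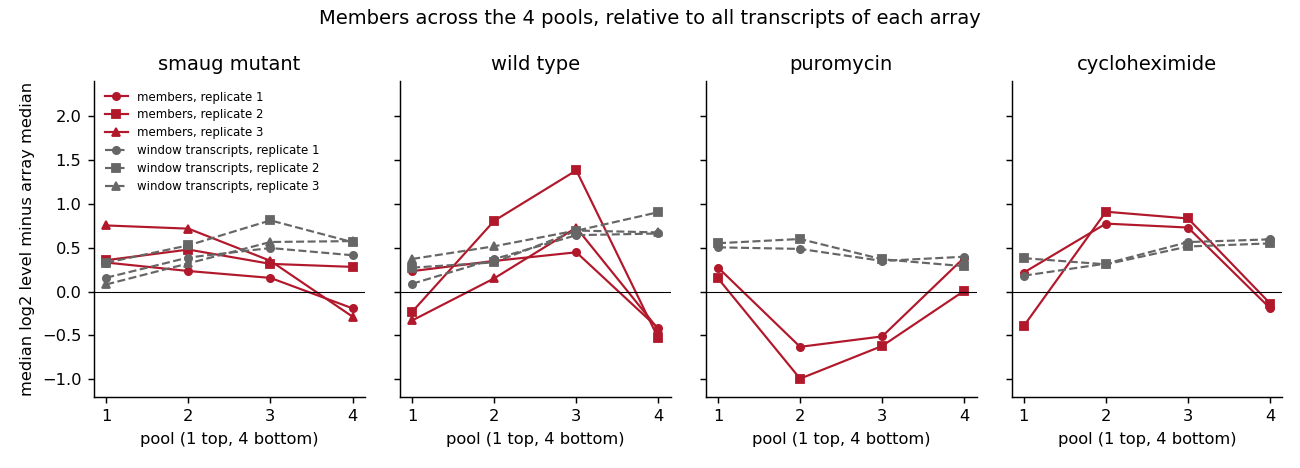
Median log2 level of the 150 members (solid lines) and of the 2202 transcripts of the TI window (dashed lines) in each pool, minus the median of all 6524 transcripts on that array, for every *smaug*-mutant, wild-type, puromycin and cycloheximide gradient. The members peak in pools 2 and 3 and drop in pool 4 with cycloheximide, whereas with puromycin pools 2 and 3 are their lowest, at -0.63 and -0.99 in pool 2 and -0.51 and -0.62 in pool 3.

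Pool 2 was the one pool whose wild-type arrays entered the choice only through the mean level, so the genotypes were compared there. The members' median log2 level in pool 2 was 12.06 ± 0.54 in *smaug*-mutant gradients and 11.91 ± 0.43 in wild-type gradients (SD, n = 3 each). The median change, *smaug* mutant minus wild type, was 0.16 over the members and 0.06 over all transcripts. In limma 0 members passed in either direction, beside 0.0613% of all transcripts lower and 0.0% higher. At an unadjusted p under 0.05 there were also 0 members, beside 47 of all 6524 transcripts lower and 68 higher. In 4 members all 3 *smaug*-mutant levels were above all 3 wild-type levels (2.51% of all transcripts) and in 2 they were all below (1.61%).

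The choice set the members' mean wild-type TI, which ran between -0.67 and 1.14. Their median TI varied more between *smaug*-mutant gradients than between wild-type gradients. It was -0.80, -0.17 and 0.90 in *smaug*-mutant gradients, against -0.11, -0.25 and 0.17 in wild-type gradients. Over all transcripts they were -0.47, -0.19 and 1.77 in *smaug*-mutant gradients, against 0.09, -0.90 and -0.33 in wild-type gradients. The 2 genotypes overlapped in both sets.

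Among the members themselves the order by ratio was held only in part from gradient to gradient. Over the 150 members, which share the array of each pool, the correlation of the ratio between gradients was 0.67 between the 2 cycloheximide gradients and 0.59 between the 2 puromycin gradients. It was between -0.39 and 0.29 among the 3 wild-type gradients, which chose the members and hold the -11.70 of FBtr0070821 in replicate 2, and between 0.16 and 0.44 among the *smaug*-mutant gradients. These are descriptions across transcripts, which are not independent replicates.

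The transcripts at the opposite end of the same window, the 150 with the highest mean wild-type ratio, moved otherwise with puromycin. The ratio changed by a median of 0.17 over the members and of -3.48 over these transcripts, of which 148 were called lower in limma and 0 higher. The pool 2 level changed by a median of -0.65 over the members, against 1.90 over these transcripts, and the pool 3 level by -2.28 over the members, against 0.16. In pool 1 the median change was 1.65 over the members, against 1.63. Both sets were chosen from the wild-type gradients, the difference between them was not tested, and they share the 8 puromycin and 8 cycloheximide arrays.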

How the data were processed

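Embryo lysates were separated on gradients into 4 pools, and pool RNA was labelled and put on custom NimbleGen arrays, 40 in all. The authors applied RMA quantile normalisation, followed by a linear rescaling of every array on spiked-in *Arabidopsis* RNA. Values were deposited as log2 levels (the base is taken from RMA), 1 per transcript and array. Scanner background was not used here, and the number of arrays limits the precision. Groups came from the labels. The TI and the ratio of pool 4 to pool 3 were taken per gradient. limma 3.58.1 (lmFit and eBayes, R 4.3.3) was run on all 6524 transcripts with Benjamini-Hochberg adjustment and a threshold of 0.05. Single-group ratios were centred on the gradient median and tested against 0 over the 7 gradients of *smaug*-mutant lysate, puromycin was compared with cycloheximide over their 4 gradients, and pool levels were fitted over 16 arrays with the spread shared over pools. The script was tested on simulated data. The members and lists were chosen with earlier results of these data known.

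Transcripts named are, per comparison, at most 2 with the largest rise and 2 with the largest fall past the threshold with no overlap, the 2 with the lowest wild-type ratio, the edge of the choice, and exceptions said to be chosen after their values were seen. Puromycin and cycloheximide gradients of the same number share a lysate by the study's methods. Their deviations correlated at 0.08 for the ratio and 0.46 for the TI. The study's methods do not state whether same-numbered *smaug*-mutant and wild-type gradients are paired, and such gradients carried opposite dyes. Their pool 2 deviations correlated at 0.65, 0.18 and -0.10 in replicates 1, 2 and 3. Their ratios over the members correlated at 0.66, -0.04 and 0.15. A link between them was not tested. P-values measure the spread between gradients of the same group, pooled over the groups of a fit. A p-value of a single-group ratio thus rests partly on the spread of other groups. For pool levels the spread was also shared over pools. There, arrays cut from the same gradient counted as separate, and a p-value rests partly on the spread of other pools. Alternatives were other scalings (no centring, centring, arrays rescaled to 1 spread), the dye as a covariate, a level filter, eBayes with trend and robust options, other fits, other numbers of members and each replicate left out. Python 3.11.15, numpy 2.4.6 and pandas 2.3.3 were used.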

Additional observations from a re-analysis of the deposited data

Results flagged for a closer look

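The members' medians lay on opposite sides of 0 under puromycin and cycloheximide in both replicates of each, for 5 measures. None of these differences between medians was tested, since the members were chosen with results known. The centred ratio of pool 4 to pool 3 was 1.02 and 0.70 with puromycin, against -0.84 and -0.91 with cycloheximide. For this ratio the puromycin and cycloheximide gradients also correlated negatively over all transcripts. The TI was -3.39 and -3.54 with puromycin, against 0.53 and 0.17 with cycloheximide. Relative to the array median, the pool 2 level was -0.63 and -0.99 with puromycin, against 0.77 and 0.91 with cycloheximide. The pool 3 level was -0.51 and -0.62 with puromycin, against 0.73 and 0.83 with cycloheximide. The pool 4 level was 0.39 and 0.0085 with puromycin, against -0.19 and -0.14 with cycloheximide, and the second puromycin value was close to 0.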

How the results depend on the processing

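Counts are of members called at an adjusted p of 0.05 in limma. Of the alternatives to the main counts, 78 stayed within 1.5 times the main count in the same direction, 32 moved further and 6 turned in direction. The 78 include every alternative with 0 calls beside a main count of 0, where there is no direction to keep. Of those for single named transcripts, 134 kept their call, 51 lost it and 0 changed sign. With arrays rescaled to 1 spread, 6 members were called lower for the *smaug*-mutant ratio (0.92% of all transcripts) and 58 lower for the cycloheximide ratio (3.56%). For the puromycin ratio 77 were called, 76 of them higher (10.9% of all transcripts higher and 13.1% lower). A level filter gave 2 calls, lower, for the cycloheximide ratio (0.0613% of the 4893 transcripts kept) and 0 for the puromycin ratio (0.0%). For the puromycin ratio, no centring gave 15 calls, all lower, which is a change of direction (48.4% of all transcripts lower). The dye as a covariate gave 0 calls (0.307% lower and 0.0613% higher). Using eBayes with trend and robust options gave 20, of which 19 were higher (1.92% higher and 2.87% lower). For the change of the ratio with puromycin, the replicate block, the dye as a covariate and the fit over 7 gradients each gave 4 calls. In each, 3 were lower and 1 higher, so that falls outnumbered rises. Of all transcripts, 39.9%, 36.8% and 39.0% were lower there, and 0.138%, 0.184% and 0.199% higher. Trend and robust options gave 38 calls, 8 lower and 30 higher (59.2% and 1.87% of all transcripts). Centring gave 102, of which 101 were higher (12.0% higher and 14.0% lower). Centring gave 9 calls for the TI, lower (7.48% of all transcripts), and 20 for pool 1, higher (10.4%). It gave 100 for pool 2, of which 98 were lower (15.3% lower and 13.8% higher). For pool 4 it gave 24, with 18 higher and 6 lower (11.1% and 19.0%), the reverse of the main direction. Pool 1 fitted alone gave 0 calls (0.0% of all transcripts). The replicate block changed no other count by more than 1.5 times. It gave 149 calls for the TI (85.6% of all transcripts lower) and 122 for pool 1 (51.1% higher). For pool 2 it gave 51, with 47 lower and 4 higher (5.17% and 19.8%). There were 135 for pool 3 (29.9% lower), 149 for pool 4 (96.0% lower) and 0 for pool 2 between genotypes. Blocking the shared lysate by duplicateCorrelation gave 0, 0 and 12 calls for the *smaug*-mutant, cycloheximide and puromycin ratios, with an estimated correlation of 0.095. Of all transcripts, 0.0%, 0.0% and 2.27% were then lower, and 0.092%, 0.245% and 0.935% higher.

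With 1 replicate left out at a time, calls ran between 0 and 72 for the cycloheximide ratio, 0 and 89 for the puromycin ratio (1 call, lower, without *smaug*-mutant replicate 3, a turn in direction), 0 and 73 for its change with puromycin, 88 and 150 for the TI, 5 and 121 for pool 1, 0 and 50 for pool 2, 0 and 126 for pool 3, 117 and 142 for pool 4, and 0 and 0 for the *smaug*-mutant ratio and for pool 2 between genotypes. A lone array was then assumed to vary like the other groups. The cause of these shifts was not tested. Leaving out the 3 members not below the median in every wild-type gradient, an alternative chosen after seeing the data like the pools fitted alone with a block, left 0, 0 and 12 calls for the 3 ratios.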
